A study of Homo sapiens with 8 samples.

Results

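A set of 10 noncoding transcripts was followed in the input RNA of METTL5-WT and METTL5-KO cells. Of these, 8 are hosts of small nucleolar RNAs (snoRNAs), namely GAS5, ZFAS1, SNHG1, SNHG5, SNHG6, SNHG8, SNHG12 and SNHG16, and the other two are the nuclear long noncoding RNAs (lncRNAs) MALAT1 and NEAT1. They were taken from the deposited count table by Ensembl gene ID without version, and 10 of 10 were among the 14054 genes that passed the filter on low counts, out of 60674 genes. METTL5 is the enzyme that places N6-methyladenosine on 18S rRNA, and both genotypes carry the source label HepG2, an established human liver cancer line. In METTL5-KO, CRISPR-Cas9 with guides flanking early METTL5 exons was used to cut the gene, whereas METTL5-WT kept it intact. Per the study's methods, such lines were grown from isolated clones, so clone and genotype cannot be told apart here. Cells of both genotypes were exposed to cycloheximide at 100 µg/mL for 7 min, which stalls ribosomes on mRNA. They were then lysed in a Triton buffer and spun, and input RNA was taken from the cleared supernatant, so RNA that stayed in the pellet, nuclear RNA included, was not counted. Each genotype had 2 input libraries. The labels do not say whether these came from separate cultures, so the p-values measure the spread between these libraries, which may be technical.

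The METTL5-WT input libraries held 11211608 and 10710226 counts in total, and the METTL5-KO libraries 12672010 and 15307256. The targeted METTL5 transcript dropped from 490 and 542 counts with the gene intact to 208 and 151 after its disruption (edgeR log2 fold change -1.86 ± 0.18, SE; adjusted p = 7.17e-08). The labelled cell type was not borne out by its defining markers. The 9 liver genes ALB, APOA1, APOB, AFP, TF, SERPINA1, FGB, HNF4A and TTR summed to between 4 and 12 counts per library, 3 of them (SERPINA1, FGB and TTR) were at 0 in every library, and 0 of 9 passed the filter. The libraries are therefore referred to by genotype only. The METTL5-KO libraries differed from each other more than the METTL5-WT libraries did (chi-square of counts per gene 17.4 against 3.59). Across genes, the difference between METTL5-KO replicates 2 and 1 had a Spearman correlation of 0.53 with exonic GC content, against 0.04 for the METTL5-WT replicates, given as a description because genes are not independent.

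A snoRNA host is a transcript whose introns are processed into snoRNAs, which guide chemical modification of ribosomal and other RNA, while the spliced exons are exported and are often degraded by nonsense-mediated decay once ribosomes reach them. Many hosts belong to the 5′ terminal oligopyrimidine (TOP) class, whose RNA begins with a C followed by an unbroken pyrimidine run, as ribosomal protein mRNAs do. MALAT1 is a very abundant nuclear transcript that gathers at splicing speckles, and NEAT1 is the scaffold RNA of paraspeckles, nuclear bodies that hold RNA-binding proteins. The contrast places hosts, whose spliced RNA is exported, beside RNA that stays in the nucleus. The host counts used here are not limited to that exported form.

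The first bases of the transcripts show what the TOP label means, so windows of 30 bases around the annotated start are printed, from 10 bases before it to 20 bases from it. The start is the one shared by the most GENCODE release 44 transcripts of each gene, or the most upstream of these where they tie. For NEAT1 the start used belongs to only 1 of its 9 transcripts. The sequence is from hg38, 5′ to 3′ on the gene's strand. Capitals mark the first run of a C followed by at least 4 pyrimidines.
GAS5: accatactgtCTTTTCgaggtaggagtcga
ZFAS1: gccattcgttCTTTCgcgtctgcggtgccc
SNHG8: aggcctcggCCTTTCacattcgggaagcgt
SNHG12: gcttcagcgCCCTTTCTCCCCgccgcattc
SNHG16: gcggtctcgcgttCTTTTCgaggtcggccg
SNHG5: ggagctactggctgcgcacttcggtCTTTT
SNHG1: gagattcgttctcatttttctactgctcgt
MALAT1: gctgtgcggtaggcattgaggcagccagcg
NEAT1: ggctataaaagcaaaagttgtggcaagtcc
These windows lie at chr1:173867970-173867999 (minus strand) for GAS5, chr20:49278632-49278661 (plus) for ZFAS1, chr4:118278748-118278777 (plus) for SNHG8, chr1:28581854-28581883 (minus) for SNHG12 and chr17:76557756-76557785 (plus) for SNHG16. SNHG5 lies at chr6:85678729-85678758 (minus), SNHG1 at chr11:62855866-62855895 (minus), MALAT1 at chr11:65499035-65499064 (plus) and NEAT1 at chr11:65422764-65422793 (plus). The SNHG6 window is not printed. The first bases from the annotated start were a C and 4 pyrimidines in 5 of 8 hosts (GAS5, ZFAS1, SNHG6, SNHG8 and SNHG12). The same held for 2.38% of 62700 annotated genes. The hosts were picked as TOP-type transcripts, so a higher share among them was built into the choice. In SNHG8 and SNHG12 the longer run in capitals begins 1 base before the start, and in SNHG6 the run begins 6 bases before it. Such a run was found somewhere in the window on the gene's strand in 7 of 8 hosts, SNHG1 being without it, and in 33.9% of all genes. Neither MALAT1 nor NEAT1 had it. Counted over single annotated transcripts, 79 of 334 host transcripts and 0 of 75 MALAT1 and NEAT1 transcripts began with the run, against 2.61% of all transcripts. The hosts were uneven in this, since 50 of the 79 were GAS5 transcripts (of its 91). SNHG6 had 5 of 8, SNHG5 had 3 of 89 and SNHG1 had 1 of 80. Annotated starts can be off by some bases, so the absence of the letters says only that they are not at this start.

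The gene models used for counting were long, since they join the exons of every annotated transcript. MALAT1 lies at chr11:65497688-65506516 on the plus strand with 8829 exonic bases. NEAT1, at chr11:65422774-65445540 on the same strand, has 22767 exonic bases and ends 52148 bases before MALAT1 begins. Among hosts, the model length ran from 1247 bases for SNHG6 to 12604 bases for SNHG5. The joined exons reach over the snoRNAs themselves. RefSeq places 34 snoRNAs inside the hosts, and 31 of them lie in what the models count as host exon. Of these, 14 have no line of their own in the count table, 11 in GAS5, 2 in SNHG1 (SNORD29 and SNORD31) and 1 in SNHG5 (SNORD50A). Any reads from those snoRNAs therefore count toward the host and cannot be told apart from it. For SNHG1 and SNHG8 the model is 1 exon block with no intron left out (3970 and 6608 bases). Reads from their unspliced precursors therefore count as host too, and spliced and unspliced RNA were not separated.

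MALAT1 was lower in METTL5-KO by more than the spread between libraries. Its level was 4708 and 4885 CPM (counts per 1000000 reads of each library, its size adjusted by the TMM method) in METTL5-WT and 2392 and 1863 CPM in METTL5-KO. Both METTL5-KO libraries lay far below both METTL5-WT libraries, and METTL5-KO replicate 2 was the lowest. The log2 fold change was -1.17 ± 0.13 (SE, n = 2 and 2; 95% interval -1.44 to -0.91), so METTL5-WT was 2.25-fold higher, with an edgeR adjusted p of 3.20e-07. The raw counts behind it were 52363 and 52268 for METTL5-WT, against 30444 and 28361 for METTL5-KO, although the METTL5-KO libraries held more reads in all. MALAT1 alone took 0.467% (exact 95% binomial interval 0.463% to 0.471%) and 0.488% (0.484% to 0.492%) of all METTL5-WT counts. In METTL5-KO it took 0.240% (0.238% to 0.243%) and 0.185% (0.183% to 0.187%). These intervals cover counting error only. The fall stood at the 2.53 percentile of all log2 fold changes, where the median gene was at -0.004 and the genes between the lower and upper quartiles ran from -0.27 to 0.29. As these are bulk lysates, fewer cells with the RNA and less RNA per cell cannot be told apart, nor can a change in how much nuclear RNA entered the lysate.

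NEAT1 was also lower in METTL5-KO, without passing the threshold. It was at 158 and 185 CPM in METTL5-WT and at 138 and 140 CPM in METTL5-KO. The groups did not overlap, but the METTL5-WT libraries differed by more from each other than the lower of them did from METTL5-KO. The log2 fold change was -0.30 ± 0.12 (SE; 95% interval -0.55 to -0.06), with an edgeR adjusted p of 0.0670. Without METTL5-KO replicate 1 or 2 it was called (edgeR adjusted p = 0.00853 and 0.0159), and without METTL5-WT replicate 1 or 2 it was not (0.276 and 0.711). A fit with a library left out takes the spread from the genotype that still has 2 libraries and assumes that the lone library varies like them. Over all genes, such fits called 37.4% without METTL5-KO replicate 1, 22.8% without replicate 2, 8.1% without METTL5-WT replicate 1 and 9.17% without replicate 2, so calls gained or lost in them are read against those shares. Of all genes tested, 22.4% were called at an adjusted p under 0.05 and 10.6% were called lower, whereas 1 of these 2 nuclear transcripts was called. Every METTL5-KO level lay below every METTL5-WT level in 30.7% of all genes tested and above it in 30.2%, so that such an order in 4 libraries is common here. It held for both nuclear transcripts (lower), for 2 of the 8 hosts (SNHG6 and SNHG12, lower) and in the upward direction for 0 of the 10. For MALAT1 and for NEAT1, each taken alone, the exact two-sided permutation p was 0.333, which is the smallest that 6 regroupings of 4 libraries can give.

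**Figure D1:**
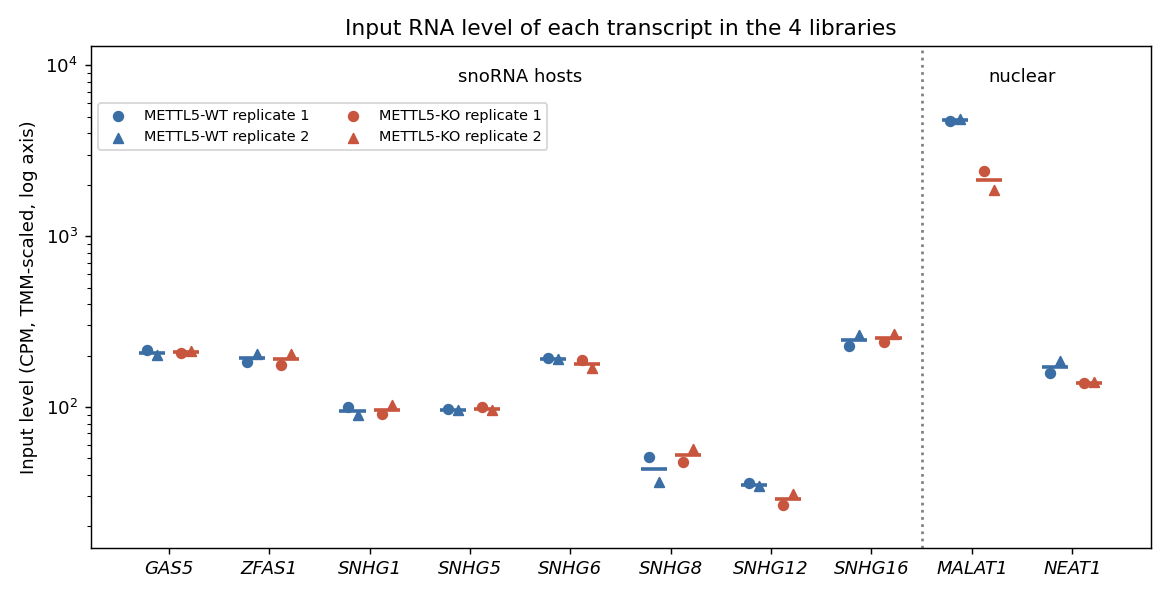
Level of each of the 10 transcripts in the 4 input libraries, in CPM per TMM-scaled library on a log axis, with points for libraries and lines for group means. MALAT1 falls from 4708 and 4885 CPM in METTL5-WT to 2392 and 1863 CPM in METTL5-KO, whereas the points of most hosts overlap.

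The 8 snoRNA hosts were at close to the same level in both genotypes. Their log2 fold changes ran from -0.28 to 0.27 with a median of 0.01, and 0 of 8 were called by edgeR, beside the 22.4% of all genes. DESeq2 also called 0 of 8, beside 17% of all genes. At an unadjusted p under 0.05 the count was 0 of 8, for which the share over all genes was not taken. A missed threshold does not show equal levels, so the interval of each difference is given.

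GAS5, the host of a large snoRNA cluster and a transcript known to accumulate when growth stops, was at 214 and 201 CPM in METTL5-WT and 206 and 212 CPM in METTL5-KO. All 4 libraries lay within a narrow band and the groups overlapped. Its log2 fold change was 0.01 ± 0.11 (95% interval -0.23 to 0.24; edgeR adjusted p = 0.971). ZFAS1, which lies head to head with the gene ZNFX1 and carries the SNORD12 group, was at 183 and 203 CPM in METTL5-WT and 176 and 205 CPM in METTL5-KO. METTL5-KO held both the lowest and the highest value, and the log2 fold change was -0.02 ± 0.12 (-0.27 to 0.23; edgeR adjusted p = 0.933). SNHG16, host of the SNORD1 group and the host with the highest CPM, was at 226 and 264 CPM in METTL5-WT and 239 and 267 CPM in METTL5-KO. The ranges of the genotypes overlapped almost wholly, and the log2 fold change was 0.05 ± 0.12 (-0.20 to 0.29).

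SNHG1, host of SNORD22 and of the cluster from SNORD25 to SNORD31, was at 101 and 89.8 CPM in METTL5-WT and at 90.8 and 102 CPM in METTL5-KO. The METTL5-KO values lay almost on the METTL5-WT ones, with a log2 fold change of 0.02 ± 0.12 (-0.23 to 0.27). SNHG5, host of SNORD50A and SNORD50B, was at 97.4 and 95.8 CPM in METTL5-WT and 99.9 and 95.8 CPM in METTL5-KO. Its 4 values were the closest together of all members, and the log2 fold change was 0.02 ± 0.12 (-0.22 to 0.26).

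The other 3 hosts had larger log2 fold changes, up or down, without being called. SNHG12, which carries SNORD99 and several H/ACA snoRNAs, was at 35.8 and 34.3 CPM in METTL5-WT and 26.6 and 31.1 CPM in METTL5-KO. The groups did not overlap, and the log2 fold change was -0.28 ± 0.15 (-0.58 to 0.02; edgeR adjusted p = 0.183). SNHG6, host of SNORD87, was at 193 and 190 CPM in METTL5-WT and 189 and 168 CPM in METTL5-KO. METTL5-KO replicate 1 lay just under the METTL5-WT libraries and replicate 2 further below, for a log2 fold change of -0.10 ± 0.12 (-0.34 to 0.13; edgeR adjusted p = 0.570). SNHG8, host of SNORA24, was at 50.6 and 36.5 CPM in METTL5-WT and 47.7 and 57.0 CPM in METTL5-KO. Its groups overlapped because METTL5-WT replicate 1 lay above METTL5-KO replicate 1, and the log2 fold change was 0.27 ± 0.15 (-0.05 to 0.58; edgeR adjusted p = 0.223). The SNHG8 log2 fold change ran from 0.06 without METTL5-WT replicate 2 to 0.53 without METTL5-WT replicate 1. Leaving out METTL5-KO replicate 1 called SNHG8 higher (0.40, edgeR adjusted p = 0.00756), and leaving out METTL5-KO replicate 2 called SNHG12 lower (edgeR adjusted p = 0.0370). With a trend on exonic GC content removed from each library, SNHG12 was called as well (log2 fold change -0.32, edgeR adjusted p = 0.0498). That fit called 26.3% of all genes, and the median over the 8 hosts was 0.11 in it. SNHG6 changed sign in the same fit, to 0.04.

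**Figure D2:**
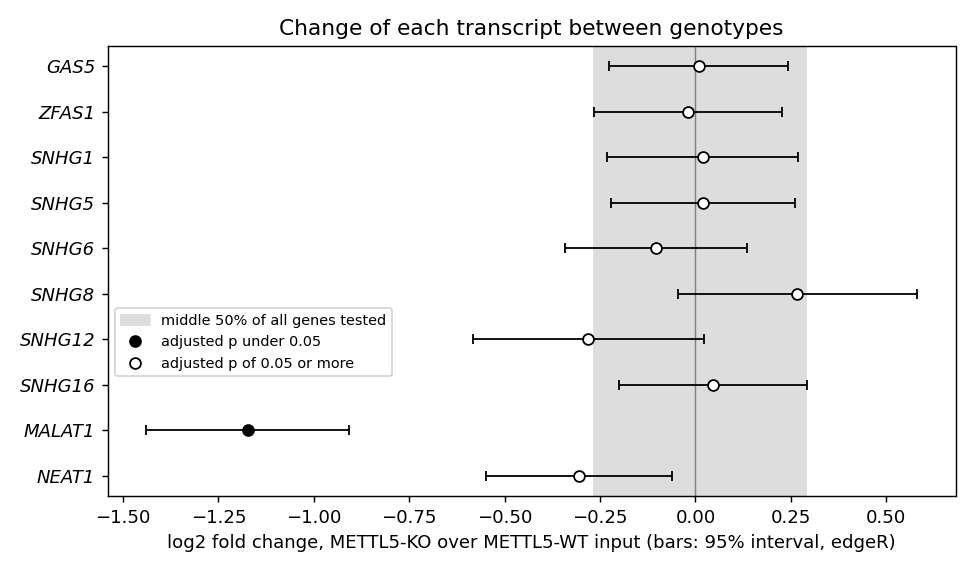
Log2 fold change of METTL5-KO over METTL5-WT for each transcript, with bars for the 95% interval of the quasi-likelihood fit. The 8 host intervals all include 0, the NEAT1 interval ends at -0.06 and the MALAT1 interval runs from -1.44 to -0.91.

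Per length, as CPM per kilobase of the joined exon model, MALAT1 stood far above every other member at 543 ± 14.2 (SD, n = 2) in METTL5-WT and 241 ± 42.3 in METTL5-KO. SNHG6 came next at 154 ± 1.86 and 143 ± 11.6. SNHG16 at 45.7 ± 4.93 in METTL5-WT and GAS5 at 42.9 ± 1.91 did not differ beyond their spread, nor did SNHG1 at 24.0 ± 1.92 and ZFAS1 at 23.2 ± 1.71. SNHG12, SNHG5, NEAT1 and SNHG8 lay close together at the bottom in METTL5-WT, between 8.21 ± 0.245 for SNHG12 and 6.59 ± 1.52 for SNHG8. Because the models join rarely used exons, a host whose reads fall on a few short exons has a per-length level below that of its main spliced form.

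Ratios within a library do not depend on how libraries were scaled. The mean log2 CPM of the 8 hosts minus that of MALAT1 and NEAT1 was -2.91 and -3.11 in METTL5-WT, against -2.41 and -2.13 in METTL5-KO. Both METTL5-KO values lay above both METTL5-WT values, and the group means differed by 0.74 on the log2 scale, a description that carries no p. Against MALAT1 alone the hosts were at -5.36 and -5.47 in METTL5-WT and at -4.47 and -4.00 in METTL5-KO, a shift of 1.18. Against NEAT1 alone they were at -0.46 and -0.75 and at -0.35 and -0.27, a shift of 0.29.

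The ratio of MALAT1 to NEAT1 was also lower in METTL5-KO. The CPM of MALAT1 was 29.8 and 26.4 times that of NEAT1 in METTL5-WT and 17.4 and 13.3 times in METTL5-KO, not corrected for length. On the log2 scale the difference between the genotypes was -0.88, with no overlap, and the exact two-sided permutation p was 0.333, the smallest possible. The hosts together took 0.109% and 0.111% of all METTL5-WT counts and 0.108% and 0.113% of all METTL5-KO counts, a range in which the groups overlapped.

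**Figure D3:**
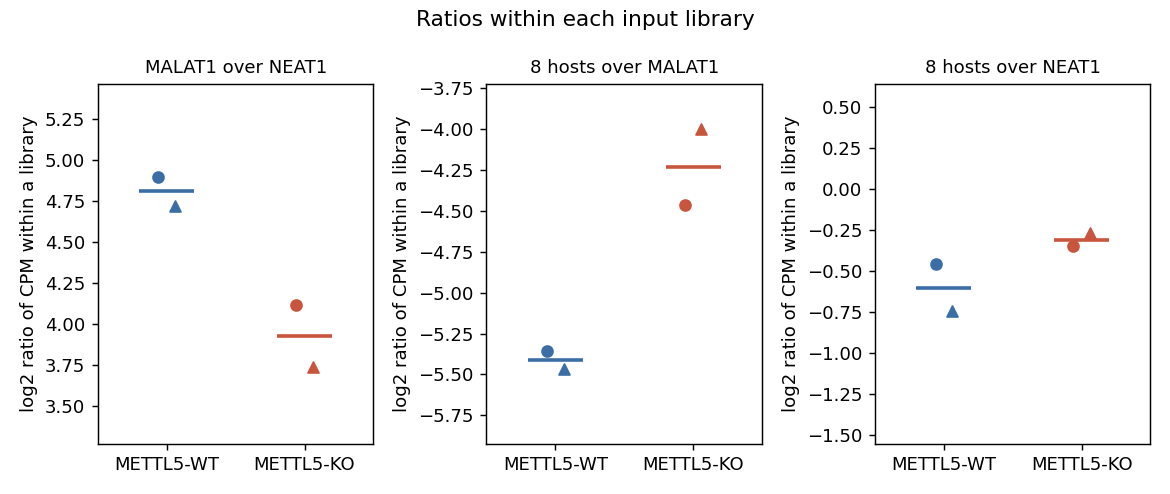
Log2 ratios between sets of transcripts within each input library, with 1 point per library and a group mean. The hosts minus MALAT1 are at -5.36 and -5.47 in METTL5-WT and at -4.47 and -4.00 in METTL5-KO, and MALAT1 minus NEAT1 is lower in both METTL5-KO libraries.

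MALAT1 and NEAT1 are neighbours on chromosome 11, so the genes around them were examined. Of the 40 nearest tested genes (20 on each side of MALAT1), 8 were called higher and 1 lower, and their median log2 fold change was 0.22 (interquartile range -0.04 to 0.40). None of the 40 fell as far as MALAT1. The 40 genes around NEAT1, which overlap with those and include MALAT1, had a median of 0.24, with 9 called higher and 2 lower, and 3 of the 40 lay below NEAT1. SNHG12 also lay low among its surroundings, with 6 of 40 neighbours below it and a neighbour median of 0.12. SNHG8 lay high, with 32 of 40 neighbours below it and a neighbour median of -0.10. Around the other hosts the neighbour medians ran from -0.09 to 0.17.

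**Figure D4:**
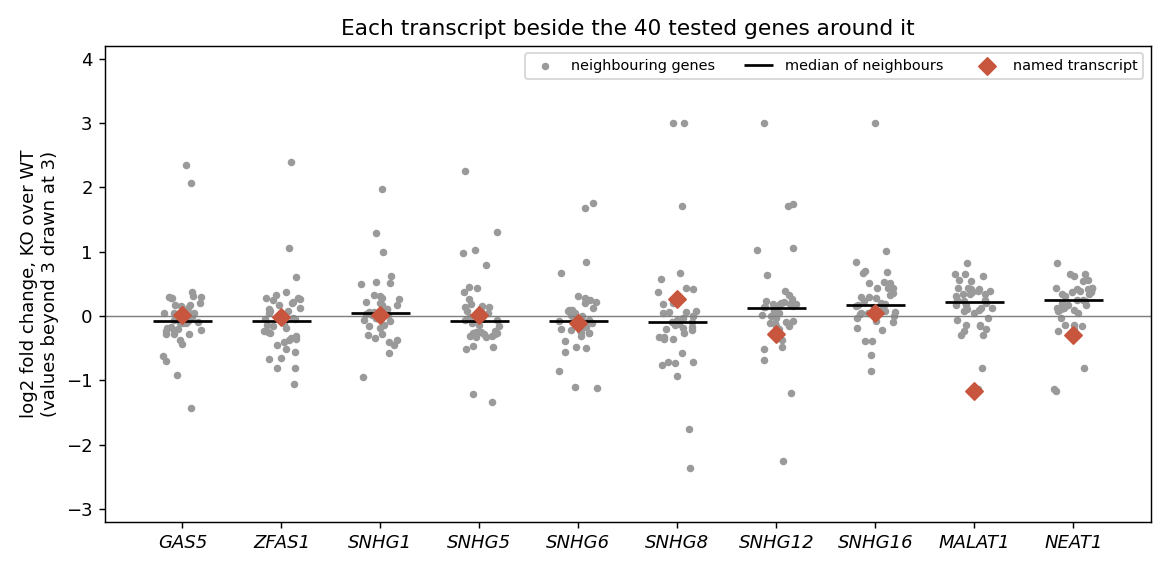
Log2 fold change of METTL5-KO over METTL5-WT for the 40 nearest tested genes around each transcript (20 on each side), with the transcript itself marked. MALAT1 lies below all 40 of its neighbours, and each host lies within the range of its own.

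On the opposite strand of SNHG8 lies PRSS12, a serine protease gene, which had 12 and 4 counts in METTL5-WT, against 112 and 133 in METTL5-KO. It rose by 3.56 on the log2 scale (edgeR adjusted p = 3.78e-07), and it was chosen for mention after its values were seen. Counting was by strand, and the part of antisense reads in the SNHG8 value was not tested. ZNFX1, opposite ZFAS1, was not called, with a log2 fold change of 0.11 (edgeR adjusted p = 0.539).

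The snoRNAs carried by the hosts could be read only in part. The count table has 21 snoRNA lines inside the hosts on the same strand, and 18 of them lie in counted host exon and are at 0 reads in every library, since a read that overlaps 2 genes on the same strand is assigned to neither under the options in the file header. A count of 0 there says nothing about the snoRNA. The other 3 had reads and 0 of 3 were called by edgeR, beside 22.4% of all genes and 12.9% of all snoRNAs tested. DESeq2 called 0 of 3, beside 17% of all genes, and 0 had an unadjusted p under 0.05. So few lines cannot be told apart from these shares. SNORD12C of ZFAS1, a box C/D guide, had 37 and 37 counts in METTL5-WT, against 34 and 25 in METTL5-KO, with a log2 fold change of -0.66 ± 0.39 (95% interval -1.48 to 0.15; edgeR adjusted p = 0.244). SNORD99 of SNHG12 had 20 and 14 counts against 28 and 21, with 0.19 ± 0.49 (-0.82 to 1.199). SNORD1B of SNHG16 had 22 and 11 counts against 28 and 29, with 0.44 ± 0.48 (-0.56 to 1.44). At counts this low a change of 2-fold lies inside all 3 intervals.

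Other noncoding snoRNA hosts, outside the 8, included called genes in both directions. Of 23 listed, 20 were tested, 3 were called higher and 5 lower (40% beside 22.4% of all genes), and the median log2 fold change was -0.20, against a median of -0.004 over all genes. Without METTL5-WT replicate 1 the median of this list was -0.07, and without METTL5-WT replicate 2 it was -0.30. Such fits call far fewer of all genes, as given for NEAT1. By the naming rule, SNHG15 showed the largest rise, from 520 and 531 counts in METTL5-WT to 891 and 1252 in METTL5-KO (edgeR log2 fold change 0.66 ± 0.13, adjusted p = 5.76e-04), and it missed the threshold without METTL5-WT replicate 1 (adjusted p = 0.0703). SNHG26 showed the largest fall, from 98 and 89 counts to 36 and 61 (edgeR log2 fold change -1.31 ± 0.28, adjusted p = 0.00149). Among the rest, named after their values were seen, SNHG17 went from 864 and 787 counts to 410 and 543 (log2 fold change -1.15, edgeR adjusted p = 5.16e-07) and SNHG4 from 404 and 420 to 254 and 309 (-0.91, edgeR adjusted p = 8.64e-05). SNHG3 and SNHG19 were also called lower, at -0.51 and -0.58, while SNHG29 and EPB41L4A-AS1 were called higher, at 0.48 and 0.59. Without METTL5-WT replicate 2 these 4 had edgeR adjusted p of 0.0581, 0.444, 0.205 and 0.0663. SNHG17, SNHG4 and SNHG26 were called under 12 of 12 alternatives. Whether these differ as a class from the 8 hosts was not tested.

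A list of protein-coding mRNAs ascribed to the TOP class, such as those of translation factors, was followed as well. Their start sequences, and any snoRNAs in their introns, were not examined. Of 25 listed, 24 were tested, 3 were called higher and 1 lower, beside 11.8% and 10.6% of all genes, with a median of 0.12. EIF3K, a subunit of initiation factor eIF3, rose by 0.44 (edgeR adjusted p = 0.00702), and HNRNPA1, a splicing regulator, fell by 0.32 (edgeR adjusted p = 0.0440). The other calls were EEF2, the elongation factor that moves the ribosome, at 0.37 and EIF3F at 0.43. Without METTL5-WT replicate 1 the list median was 0.15, and without METTL5-WT replicate 2 it was 0.10. Such fits call far fewer of all genes, so calls lost in them were not read as a result about this list. With the GC trend removed, 8 were called higher and 1 lower, beside 13.7% and 12.7% of all genes, but EEF2 (log2 fold change 0.20) and HNRNPA1 were not among them. HNRNPA1 was also not called with TMM from protein-coding genes or with no filter. Among 10 regulators of TOP mRNA translation, 2 were called higher and 0 lower (20% called, beside 22.4% of all genes), with RPS6KB2, an S6 kinase, at 0.55 (edgeR adjusted p = 0.00412) and EIF4EBP2, a repressor of cap-dependent initiation, at 0.48. Neither was called without METTL5-WT replicate 1 (edgeR adjusted p = 0.152 and 0.295) or replicate 2 (0.0803 and 0.117).

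For the decay and assembly machinery of hosts and snoRNAs, the counts stand beside the 22.4% of all genes called. Of 10 nonsense-mediated decay factors 0 were called by edgeR and 0 by DESeq2, which called 17% of all genes. There were 2 at an unadjusted p under 0.05, and the median log2 fold change was -0.17. With the GC trend removed, 1 was called higher and 2 lower, where 26.3% of all genes were called. The counts were also 1 and 2 without METTL5-KO replicate 1 (37.4% of all genes), and 1 and 0 without METTL5-KO replicate 2 (22.8%). Of 8 proteins of box C/D and H/ACA snoRNPs, 1 was called. It was NOP56, a core box C/D protein, with 1750 and 1504 counts in METTL5-WT, against 1307 and 1561 in METTL5-KO, or relative to library size an edgeR log2 fold change of -0.54 ± 0.12 (adjusted p = 0.00158). Without METTL5-WT replicate 1 its edgeR adjusted p was 0.211. Of 11 assembly factors, 1 was called, NUFIP1 at -0.73 ± 0.26 (edgeR adjusted p = 0.0488), which was called under 2 of 12 alternatives and, without METTL5-WT replicate 1 or 2 or METTL5-KO replicate 2, had adjusted p of 0.0859, 0.377 and 0.128.

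Other nuclear lncRNAs were called at about the share of all genes. Of 12 listed, 9 were tested, and 1 was called higher and 1 lower (22.2% called, beside 22.4% of all genes). The share over all lncRNAs tested was 13.6%. Their median was -0.04, which turned to 0.07 with the GC trend removed. LINC00667 was called higher at 0.45 ± 0.14 (edgeR adjusted p = 0.0247) and FTX, from the X-inactivation region, lower at -0.52 ± 0.14 (edgeR adjusted p = 0.0103). Neither was called without METTL5-WT replicate 1 (edgeR adjusted p = 0.335 and 0.297) or replicate 2 (0.188 and 0.0586). The list of 11 nuclear small RNAs held no spliceosomal snRNA, and the 4 of it that were tested were all small Cajal body RNAs (SCARNA5, SCARNA6, SCARNA7 and SCARNA10). Of these, 0 were called by edgeR or by DESeq2, beside 22.4% and 17% of all genes. An unadjusted p under 0.05 was found for 1, and the median was -0.26. Genes of the annotated snRNA class, which were looked at after their values were seen, went the other way. Of 91 tested genes of this class, 22 were called higher and 1 lower (25.3% called), with a median of 0.41. Of all genes, 22.4% were called, 11.8% higher and 10.6% lower. The class was not followed under the alternative fits. RNU5A-1 had 4045 and 3643 counts in METTL5-WT, against 9421 and 12307 in METTL5-KO, and rose by 1.14 on the log2 scale (edgeR adjusted p = 1.08e-07). RNU4-2 rose by 1.09 (edgeR adjusted p = 3.20e-07) and RNU4-1 by 1.14 (edgeR adjusted p = 3.60e-07), changes about as large as that of MALAT1 and opposite in direction. Many snRNA genes have near-identical copies, so the split of reads between them is uncertain.

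Among protein partners of the nuclear bodies, 4 transcripts were called lower, a number to be read beside the 10.6% of all genes called lower. Of 13 paraspeckle protein genes, 0 were called higher and 2 lower (15.4% called, beside 22.4% of all genes), with a median log2 fold change of -0.15. PSPC1, a paraspeckle core protein, went from 639 and 523 counts in METTL5-WT to 330 and 403 in METTL5-KO (edgeR log2 fold change -1.02 ± 0.14, adjusted p = 1.06e-05). NUDT21, a subunit of a 3′-end processing factor that acts on NEAT1, went from 2542 and 2484 counts to 1793 and 1853 (edgeR log2 fold change -0.81 ± 0.12, adjusted p = 1.88e-05). Both were called under 12 of 12 alternatives. Other paraspeckle core genes were not called, with NONO at -0.14 and SFPQ at -0.25. Of 10 nuclear speckle protein genes, 0 were called higher and 2 lower (20% called), with a median of -0.16. These were SRSF6 at -0.47 ± 0.12 (edgeR adjusted p = 0.00759) and SRSF1, a splicing factor that binds MALAT1, at -0.42 ± 0.12 (edgeR adjusted p = 0.0146). Neither was called without METTL5-WT replicate 1 (edgeR adjusted p = 0.149 and 0.255) or replicate 2 (0.222 and 0.304).

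**Figure D5:**
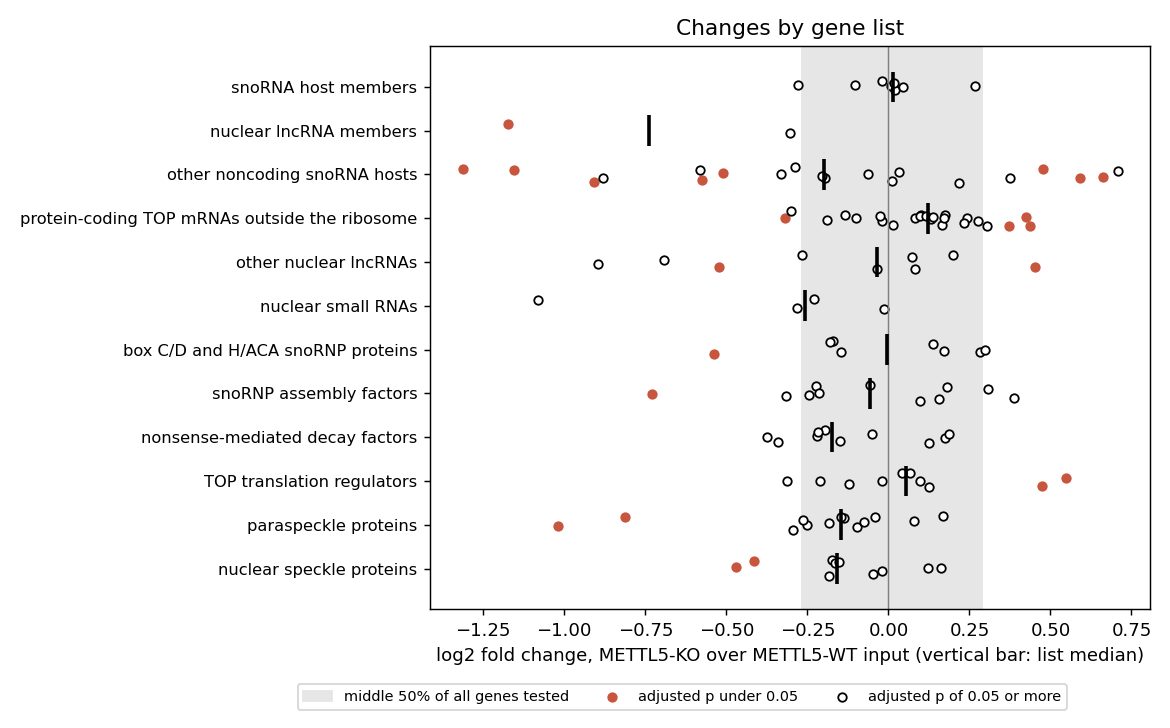
Log2 fold change of METTL5-KO over METTL5-WT for the tested genes of each list, with called genes marked and a line at the list median. The 8 hosts centre on 0.01, while the called genes among the other noncoding snoRNA hosts run from SNHG26 at -1.31 to SNHG15 at 0.66.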

How the data were processed

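RNA from cleared lysates was depleted of rRNA and sequenced as input beside ribosome-protected fragments. Only the 4 input libraries were used. Groups and replicate numbers were taken from sample titles. Per the submitters' processing notes, reads were aligned to hg38 with STAR 2.7.3a, and the authors deposited raw counts per gene from featureCounts, over exons and by strand. The notes name version 1.6.0 and the file header another one. The deposited translation efficiency table was not used, since none of the members has a line in it, and its columns of the authors' own fold changes and p-values were left out. Lines of a broken gene (3) and of the Y copies of pseudoautosomal genes (44, with 3 reads in all) were left out.

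Counts were tested with edgeR 4.0.16 in R 4.3.3 (TMM, filterByExpr, quasi-likelihood F test, two-sided, Benjamini-Hochberg over 14054 genes, called at an adjusted p under 0.05). The SE is the log2 fold change divided by the root of F. CPM is per TMM-scaled library. Exonic GC content and symbols came from hg38 and GENCODE release 44 (60418 of 60674 genes matched), and snoRNA positions from RefSeq. Scripts ran on Python 3.11.15, with figures from matplotlib 3.10.9, and the fit was tested on simulated data. The members and lists were chosen with earlier results of these data known. Named from each other list were the called genes with the largest rise and fall among those with a mean count of at least 10, and among snoRNAs those reaching that mean. In total, 12 alternatives were tried, among them DESeq2 1.42.0, other scalings, no filter, a replicate block, removal of a GC trend (loess, span 0.3) and leaving out each library.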

Additional observations from a re-analysis of the deposited data

How the results depend on the processing

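MALAT1 was called lower under 12 of 12 alternatives, with log2 fold changes from -1.35 to -1.001 (edgeR and DESeq2 adjusted p from 1.29e-29 to 3.11e-06). NEAT1 kept its sign under 12 of 12, from -0.41 to -0.18 (adjusted p from 0.00853 to 0.711). Deviations of same-numbered libraries had a correlation of 0.03 across genes. With 2 libraries per genotype that cannot tell whether same-numbered libraries shared a batch. With the replicate block 3554 genes (25.3% of those tested), 0 hosts and 1 nuclear lncRNA were called. With the GC trend removed 1 host was called (SNHG12), beside 26.3% of all genes. With GC trend and replicate block together 2 hosts (SNHG12, SNHG8) and 2 nuclear lncRNAs were called, beside 31.5% of all genes. Leaving out 1 library gave 0 to 1 called hosts (1 without KO replicate 1 or KO replicate 2), 1 to 2 called nuclear lncRNAs (2 without either of these) and 1207 to 5474 calls over all genes, and a 2-fold rule with an unadjusted p under 0.05 gave 1139. NEAT1 had an edgeR adjusted p of 0.0159 without KO replicate 2.

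Of 120 member values under the alternatives, 14 changed sign, all of hosts that were not called. ZFAS1 was at 0.0095 with no filter, 0.0153 with the GC trend removed and 0.0120 with GC trend and replicate block, and SNHG6 was at 0.0378 and 0.0376 with GC removed, without and with the block. With a library left out, the lowest and highest log2 fold changes were -0.133 and 0.0994 for ZFAS1, -0.0593 and 0.167 for SNHG16, -0.0281 and 0.0570 for GAS5, -0.0658 and 0.111 for SNHG1, -0.0011 and 0.0520 for SNHG5, -0.178 and -0.0195 for SNHG6, -0.397 and -0.163 for SNHG12 and 0.0581 and 0.525 for SNHG8. The cause was not tested. The difference in hosts minus nuclear transcripts stayed between 0.60 and 0.87 with a library left out. Depth limits the hosted snoRNAs, with fewer than 40 counts each.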

Other observations

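Over all lncRNAs in the count table, 1117 of 16763 were tested, and 98 were called higher and 54 lower in METTL5-KO by edgeR. That is 13.6% called, below the 22.4% of all genes. Over all snoRNA genes with a line of their own, 85 of 942 were tested, and 10 were called higher and 1 lower (12.9% called, also below that share). Host exon overlap, as described for the 8 hosts, was not examined for the rest of these snoRNAs. Neither class was matched to all genes in count level, so these shares are not like for like.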
